A study of Rattus norvegicus with 16 samples.

Results

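The genes described here had their highest level in CA3. A gene was taken when its mean over the 4 CA3 libraries was at least 3 CPM (counts per 1000000 counts of a library, with 2 very abundant genes left out of the sum) and at least 2 times its mean in each of CA1, CA2 and DG. Of the 32883 genes in the count table, 71 met these limits and 68 are described, because 3 were left out by name. The members were thus chosen by their mean levels in the 4 subfields, so every CA3 value below is a description and carries no test. Of the 68 genes, 9 could be paired with a symbol, namely Bhlhe23, Col8a2, Fermt1, Frem3, Hcrtr2, Mx1, RT1-M6-1, Tacr2 and Vgll3. The other 59 are known here only by their Ensembl identifier.

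The data came from 4 male Wistar rats aged 3 months, without a treatment. Laser capture microdissection, in which a laser cuts out a chosen area of a stained brain section, was used to take the granular layer of the dentate gyrus (DG) and the pyramidal layers of the 3 CA fields. Each rat gave 1 library of total RNA per subfield, and replicates 1 to 4 stand for the rats. A captured layer also holds glia, vessels and interneurons, and fewer cells of a type and less RNA per cell cannot be told apart in such samples.

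CA3 pyramidal neurons receive the mossy fibres of the dentate granule cells, excite one another through recurrent collaterals, and send the Schaffer collaterals to CA1. CA2 is the small field between CA3 and CA1. The symbols among the 68 genes fall into transcription regulators (Vgll3, Bhlhe23), proteins of the extracellular matrix and of integrin adhesion (Frem3, Col8a2, Fermt1), receptors of neuropeptides (Hcrtr2, Tacr2) and genes of the immune response (Mx1, RT1-M6-1).

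Between 3216512 and 11933279 counts were assigned to genes per library, so that 3 counts equalled 0.315 to 1.21 CPM. The columns of CA2 replicates 2 and 4 differed no more than counting error alone gives (chi-square per degree of freedom 0.999, chi-square test p = 0.531). Those of DG replicates 2 and 4 exceeded it slightly (1.03, chi-square test p = 0.00421). The 22 other pairs within a subfield ranged from 2.21 to 16.9. Both pairs entered as 1 sample each in means ± SD and in tests, which leaves n = 3 in CA2 and DG. The libraries kept to their labels on the CA1 marker Wfs1, the CA2 markers Amigo2, Cacng5 and Ccdc3 and the granule cell markers Prox1, C1ql2 and Pdyn. Wfs1 was at 786 to 993 CPM in CA1, 65.9 to 168 in CA2, 10.6 to 129 in CA3 and 13.5 to 20.5 in DG. The highest CA3 value belonged to replicate 2, and the other CA3 libraries were at 10.6 to 17.0 CPM. The summed granule cell markers were 967 to 1095 CPM in DG and 12.8 to 40.7 in CA3, with the highest CA3 value in replicate 4. The summed CA2 markers were 180 to 260 CPM in CA2, 10.4 to 38.2 in CA1, 25.4 to 29.7 in CA3 and 4.74 to 6.16 in DG. Markers of glia, vessels, interneurons and mossy cells had no identifier paired with their symbol and were not analysed here.

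Promoters are shown for 4 of the named genes, Vgll3, Frem3, Hcrtr2 and Bhlhe23, because they were among the 5 with the widest gap between CA3 and the next subfield and hold a letter string tied to the named transcription regulators. Vgll3 acts through TEAD factors, which bind GGAATG, and the factors of the Bhlhe23 family bind E-boxes such as CAGCTG. Each sequence runs 5′ to 3′ on the strand of the gene, from 250 bases before to 50 bases after the RefSeq start in the build GRCr8, with GGAATG, its reverse complement CATTCC and CAGCTG in capitals. The Vgll3 sequence lies at chr11:17089342-17089641 (plus strand), that of Frem3 at chr19:44271088-44271387 (minus strand), that of Hcrtr2 at chr8:85986356-85986655 (minus strand) and that of Bhlhe23 at chr3:188268737-188269036 (minus strand).
Vgll3: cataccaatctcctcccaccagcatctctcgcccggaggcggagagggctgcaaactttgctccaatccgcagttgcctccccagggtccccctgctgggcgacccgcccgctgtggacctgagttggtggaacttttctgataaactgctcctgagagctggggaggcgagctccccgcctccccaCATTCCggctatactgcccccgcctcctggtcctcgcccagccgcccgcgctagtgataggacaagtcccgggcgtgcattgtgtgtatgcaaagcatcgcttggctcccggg
Frem3: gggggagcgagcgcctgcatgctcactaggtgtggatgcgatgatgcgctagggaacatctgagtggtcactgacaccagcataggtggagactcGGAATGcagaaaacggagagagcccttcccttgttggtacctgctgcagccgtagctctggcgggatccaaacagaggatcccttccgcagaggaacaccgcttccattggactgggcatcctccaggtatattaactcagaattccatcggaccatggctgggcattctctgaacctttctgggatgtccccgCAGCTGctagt
Hcrtr2: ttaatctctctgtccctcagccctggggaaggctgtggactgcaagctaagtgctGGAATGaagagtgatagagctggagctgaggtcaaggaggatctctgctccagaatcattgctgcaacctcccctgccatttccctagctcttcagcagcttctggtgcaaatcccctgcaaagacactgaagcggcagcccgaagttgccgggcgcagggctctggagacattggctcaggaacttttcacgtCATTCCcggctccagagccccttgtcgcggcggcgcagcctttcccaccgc
Bhlhe23: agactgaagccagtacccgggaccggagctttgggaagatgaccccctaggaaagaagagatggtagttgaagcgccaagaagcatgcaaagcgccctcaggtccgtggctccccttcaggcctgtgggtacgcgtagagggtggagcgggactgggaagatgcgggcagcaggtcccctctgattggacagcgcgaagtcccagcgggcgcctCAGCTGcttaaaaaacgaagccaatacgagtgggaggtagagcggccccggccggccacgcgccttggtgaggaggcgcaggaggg

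All 9 symbols matched a RefSeq promoter, with 10 promoters in all because Vgll3 has 2. GGAATG, read on both strands, stood in 3 of these promoters (Vgll3, Frem3 and Hcrtr2) and in 14.2% of the 33469 promoters of this length. CAGCTG stood in 4, namely those of Frem3, Bhlhe23 and Tacr2 and the second one of Vgll3, and in 15.1% of all promoters. None of the 10 held the E-box CATATG (4.11% of all promoters) or the core of the interferon response element, GAAA and GAAA parted by 2 bases (3.92%). A match describes these letters only and is not a bound site.

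The 68 genes varied widely in level and in how sharply they marked CA3. Their CA3 means ran from 3.10 to 298 CPM with a median of 16.4, and 41 of them were at 10 CPM or more. The smallest of the 3 ratios of CA3 to another subfield ran from 2.003 to 29.6 with a median of 2.52. It was under 3 in 44 genes and at least 4 in 10. The gene just outside had a smallest ratio of 1.996, and the highest CA3 mean under the limit of level was 2.88 CPM. The 10 genes with the widest gap were the 9 named ones and ENSRNOG00000026953. The symbols come from a list of marker genes that the authors drew from these same libraries with a 4-fold limit, so the wide gap of the named genes is not independent evidence.

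**Figure D1:**
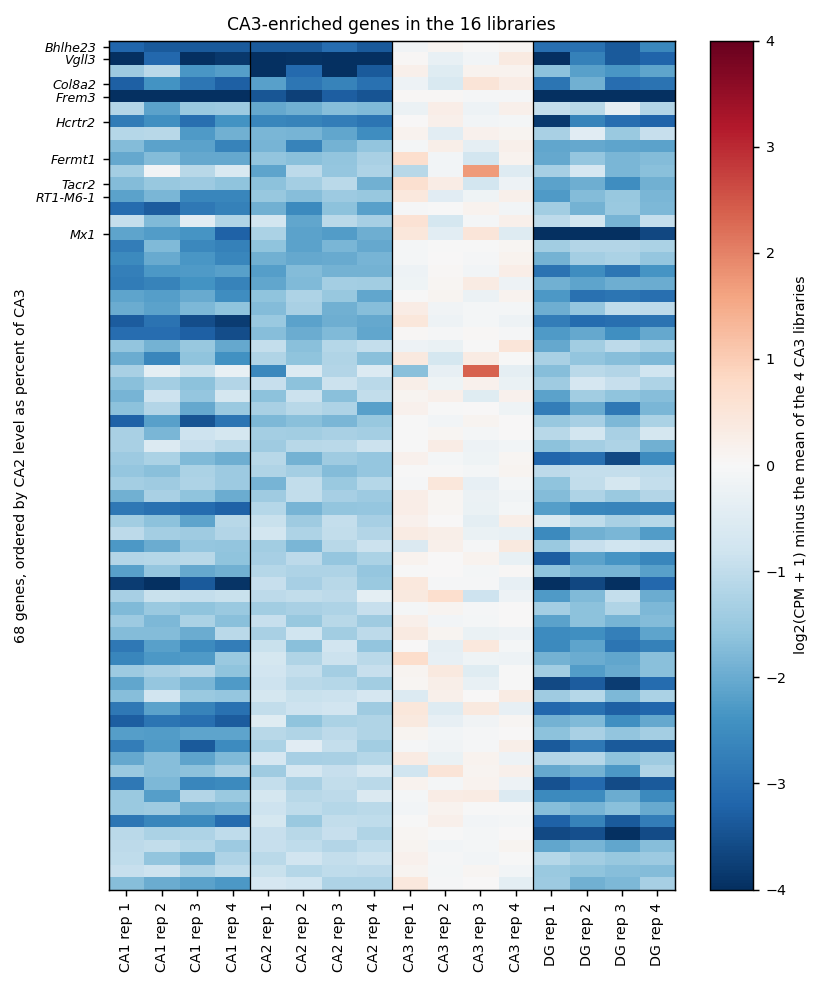
Heatmap of the 68 genes (rows, ordered by the CA2 level as a percent of CA3) in the 16 libraries (columns), with the 9 named genes labelled. Colour is log2(CPM + 1) minus the mean of the 4 CA3 libraries, and the scale stops at 4 on either side. The CA2 columns are paler than the CA1 and DG columns in most rows, and 2 rows are red in CA3 replicate 3 only.

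Vgll3, a cofactor of TEAD transcription factors, had a mean of 19.5 ± 4.07 CPM in CA3 (SD, n = 4). Its CA3 libraries read 20.02, 15.4, 17.7 and 24.95 CPM in replicates 1 to 4. The CA1 libraries read 0.264, 1.29, 0.149 and 0.404 CPM. The CA2 libraries read 0, 0.296, 0.249 and 0.227 CPM, 4 counts in all, and the DG libraries 0.258, 2.10, 0.990 and 1.19 CPM. The groups outside CA3 overlapped with one another, and all 4 CA3 libraries were above them. Replicate 2 held the highest value in each of CA1, CA2 and DG, with 11 counts in CA1 and 15 in DG. Over summed counts, the CA3 level was 98.4 times that of CA2, with an exact 95% interval of 38.2 to 362 that covers counting error only. Intervals of CA3 ratios, here and below, rest on values that the rule used, so they are no test. Vgll3 was higher in DG than in CA2 by 2.41 ± 0.79 on the log2 scale (SE, edgeR quasi-likelihood test, Benjamini-Hochberg adjusted p = 0.0207), and the summed counts gave a ratio of 6.66 (95% counting interval 2.32 to 26.2). That call was lost with the rat as a replicate block on the 12 columns without repeats (edgeR adjusted p = 0.200), without CA2 replicate 1 (0.0574) and without the repeated DG pair (0.230). CA1 and DG gave an edgeR adjusted p of 0.268, which was 0.0262 without CA1 replicate 2.

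Bhlhe23, a basic helix-loop-helix transcription factor, had the widest gap of the 68 genes. Its CA3 libraries read 8.19, 9.97, 9.05 and 9.78 CPM (mean 9.25 ± 0.810, SD, n = 4). Outside CA3 it was at or under 3 counts in every library. CA1 held 1 count, in replicate 1 (0.132 CPM). CA2 held 2 counts, both in replicate 3 (0.249 CPM), and DG held 6 counts, with replicate 4 the highest at 0.711 CPM. The summed CA3 level was 234 times that of CA1 (95% counting interval 41.7 to 9290), 97.5 times that of CA2 (26.7 to 809) and 32.9 times that of DG (14.9 to 90.6). Its promoter above holds 1 CAGCTG. No fold is given between CA1, CA2 and DG, which were at this floor.

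Frem3, a protein of the FRAS1-related extracellular matrix family, had a graded level. Its CA3 libraries read 119, 121, 113 and 111 CPM, a mean of 116 ± 4.70 (SD, n = 4). CA2 read 9.98, 7.70, 10.8 and 9.78 CPM, which is 8.26% of the CA3 mean. CA1 read 0, 1.17, 0.149 and 2.43 CPM, and DG 0, 1.68, 0.660 and 0.949 CPM. The CA2 libraries were all above those of CA1 and DG and all below those of CA3, while CA1 and DG overlapped. Frem3 was higher in CA2 than in CA1 by 3.89 ± 0.44 on the log2 scale (SE, edgeR quasi-likelihood, adjusted p = 1.98e-06) and higher in CA2 than in DG by 3.57 ± 0.44 (adjusted p = 1.50e-06). Between CA1 and DG the edgeR adjusted p was 0.780, and the direction turned without CA1 replicate 1, without CA1 replicate 3 and without the repeated DG pair (log2 fold changes of CA1 over DG of 0.15, 0.01 and 0.81, against -0.32 with all samples). The mean CPM ran against this fitted sign, with 0.937 ± 1.12 in CA1 (SD, n = 4) and 0.658 ± 0.657 in DG (SD, n = 3).

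Col8a2, a chain of the short type VIII collagen found in basement membranes, read 7.43, 5.25, 12.8 and 10.8 CPM in CA3 (mean 9.06 ± 3.36, SD, n = 4). Its CA1 libraries ranged from 0 to 0.822 CPM. The DG libraries reached 1.54 CPM in replicate 2, and CA2 reached 1.15 CPM in replicate 1. The CA3 libraries lay above all others, and the subfields outside CA3 overlapped, with edgeR adjusted p of 0.652 (CA1 and CA2), 0.591 (CA1 and DG) and 0.975 (CA2 and DG). The sign of the last difference, 0.04 for CA2 over DG on the log2 scale, turned to -0.57 without CA2 replicate 1, -0.18 without DG replicate 1 and -0.35 without DG replicate 3. That of CA1 over DG, -0.71, turned to 0.81 without the repeated DG pair.

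Fermt1, a kindlin that binds the tails of integrins, was close to the limit of level. It read 5.61, 2.83, 1.49 and 3.59 CPM in CA3, with 2 of the 4 libraries under 3 CPM. Outside CA3 it was at or under 3 counts in every library, with 2 counts in CA1, 9 in CA2 and 5 in DG. The summed CA3 level was 7.51 times that of CA2 (95% counting interval 3.79 to 16.9), 13.7 times that of DG (5.67 to 43.2) and 40.6 times that of CA1 (10.9 to 341). These intervals leave out the spread among the CA3 libraries. All 4 CA3 libraries were above all 12 others.

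Hcrtr2, the orexin receptor 2, is a receptor for the wake-promoting peptides of the lateral hypothalamus. It read 17.0, 19.4, 15.4 and 15.8 CPM in CA3, a mean of 16.9 ± 1.82 (SD, n = 4). CA1 read 1.59, 2.23, 1.19 and 2.43 CPM, CA2 1.92, 1.78, 1.62 and 1.36 CPM, and DG 0.258, 1.82, 1.16 and 0.949 CPM. CA1, CA2 and DG overlapped, and no difference among them passed the test. CA1 over DG was 0.74 ± 0.37 on the log2 scale (SE, edgeR adjusted p = 0.148) and CA2 over DG 0.71 ± 0.39 (adjusted p = 0.171). CA1 over CA2 was 0.03 ± 0.35 (edgeR adjusted p = 0.973), and it turned to -0.15 without CA1 replicate 2, -0.04 without CA1 replicate 4 and -0.02 without the repeated CA2 pair. Of the 3 genes in the orexin list (the peptide and its receptors), only Hcrtr2 was paired with an identifier.

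Tacr2, the neurokinin receptor for neurokinin A, varied more among rats. Its CA3 libraries read 7.58, 5.88, 2.35 and 3.79 CPM, a mean of 4.90 ± 2.30 (SD, n = 4). CA2 read 0.768, 1.18, 1.62 and 0.455 CPM, CA1 0.661, 0.940, 1.05 and 0.808 CPM, and DG 0.258, 0.420, 0 and 0.474 CPM. The CA1 and CA2 libraries overlapped, and the lowest CA2 library (0.455 CPM) lay under the highest DG library (0.474 CPM). Tacr2 was higher in CA2 than in DG by 2.06 ± 0.71 on the log2 scale (SE, edgeR quasi-likelihood, adjusted p = 0.0284), with 23 counts in CA2 and 6 in DG. The edgeR adjusted p was 0.179 without CA2 replicate 3, 0.0560 without DG replicate 1 and 0.105 without DG replicate 3. CA1 over DG was 1.69 ± 0.72 (edgeR adjusted p = 0.0850). CA1 over CA2 was -0.38 and turned to 0.12 without CA2 replicate 3.

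Mx1, an antiviral GTPase induced by interferon, was highest in CA3 but was also found in CA1 and CA2. It read 47.9, 26.03, 49.4 and 24.0 CPM in CA3, where replicates 1 and 3 stood at nearly the same level and replicates 2 and 4 at a lower one. CA2 read 13.8, 7.11, 6.60 and 8.19 CPM and CA1 7.27, 6.58, 5.97 and 2.83 CPM. DG read 0, 0.979, 0.990 and 1.90 CPM, below every other library. Mx1 was higher in CA1 than in DG by 2.73 ± 0.51 on the log2 scale (SE, edgeR quasi-likelihood, adjusted p = 0.000274) and higher in CA2 than in DG by 3.38 ± 0.50 (adjusted p = 1.69e-05). CA2 over CA1 was 0.65 ± 0.35 (edgeR adjusted p = 0.257).

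RT1-M6-1, a gene of the rat major histocompatibility complex class I, read 7.13, 3.46, 4.46 and 5.99 CPM in CA3 (mean 5.26 ± 1.62, SD, n = 4). CA2 was even across libraries at 1.15, 0.889, 1.25 and 1.14 CPM, and DG read 0.258, 0.839, 1.16 and 0.711 CPM. CA1 read 0.396, 0.705, 0 and 0 CPM, so that its libraries lay below those of CA2. CA2 over CA1 was 1.72 ± 0.63 on the log2 scale (SE) and missed the threshold (edgeR adjusted p = 0.0764), which it passed without CA1 replicate 2 (0.0290). This family holds near-identical copies that can share reads, so its counts are uncertain.

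**Figure D2:**
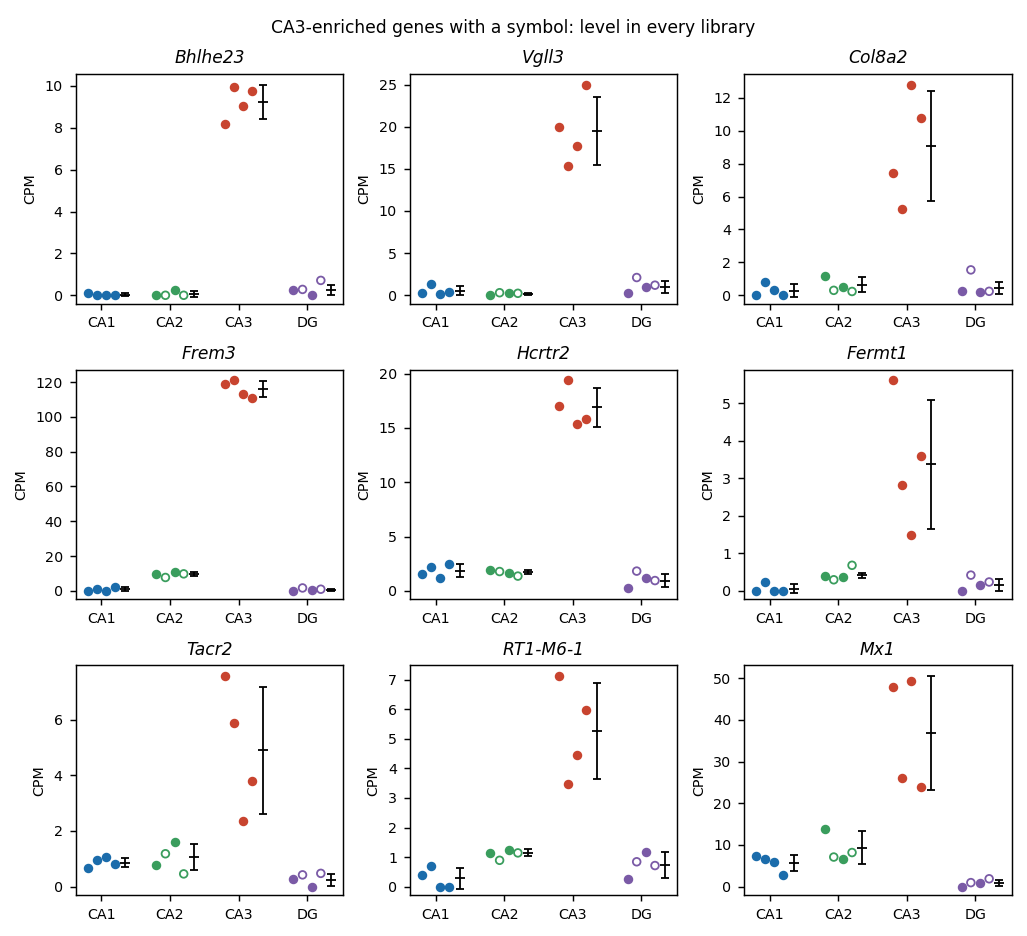
Level (CPM, linear axis, 1 panel per gene) of the 9 named genes in each library of CA1, CA2, CA3 and DG. Open points are the repeated columns of CA2 and DG, and the black bars are the mean ± SD with each repeated pair as 1 value (n = 4 in CA1 and CA3, n = 3 in CA2 and DG). In every panel the 4 CA3 points lie above all others, and Frem3 has CA2 points near 10 CPM.

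Over all 68 genes, CA2 stood nearest to CA3. The second highest subfield was CA2 for 43 genes, DG for 16 and CA1 for 9. The lowest was CA1 for 32, DG for 29 and CA2 for 7. The same ranking over all genes is not given here, so these counts are not read as particular to the 68. Among its pairwise comparisons the paper found CA2 and CA3 the most similar. As a percent of the CA3 mean, the median level was 32.5% in CA2 (quartiles 24.7 and 43.3), 21.3% in CA1 (11.1 and 29.9) and 17.7% in DG (8.33 and 31.1). All 9 named genes lay under this median in CA2, which the 4-fold limit of the list that named them largely set in advance. Vgll3 and Bhlhe23 had 0.989% and 0.673% of their CA3 mean in CA2. The summed level of the 68 genes was 2684 to 3118 CPM in CA3, 964 to 1082 in CA2, 646 to 744 in CA1 and 544 to 641 in DG. The rule set CA3 highest. The ranges of CA1 and DG nearly met, and their separation rested on ENSRNOG00000037687, with means of 135 CPM in CA1 and 22.2 in DG.

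**Figure D3:**
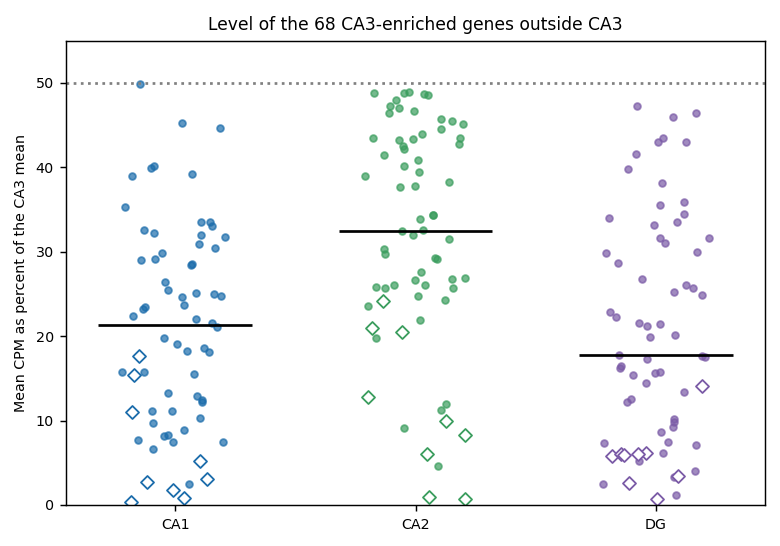
Mean level of each of the 68 genes in CA1, CA2 and DG as a percent of its CA3 mean (linear axis). Diamonds are the 9 named genes, black lines the medians (21.3, 32.5 and 17.7%), and the dotted line is the limit of the rule. The CA2 points crowd towards the limit. The diamonds lie low in all 3 subfields, as the 4-fold limit of the list behind their symbols largely set.

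The comparisons among CA1, CA2 and DG were tested in 1 edgeR fit over 17174 genes, all 68 included. The rule capped each of these 3 means against CA3 but did not set them against one another, and the genes outside the 68 had no such cap. The shares of all genes tested, here and below, include genes under 3 CPM in CA3, and 11447 genes reached that level. Genes with few counts are less easily called, so these shares are not matched to the 68 for level. Bhlhe23 had 10 or fewer counts over the 12 libraries outside CA3, so it entered the fit only through CA3 and says nothing in these comparisons. CA2 exceeded CA1 in 22 of the 68 genes, which is 32.4% against 8.00% of all genes tested. CA1 exceeded CA2 in 1 gene, ENSRNOG00000049882, against 6.31% of all genes. The median log2 fold change of CA1 over CA2 was -0.70 over the 68 genes and -0.01 over all. Of the named genes, only Frem3 passed.

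CA2 exceeded DG in 34 of the 68 genes (18.9% of all genes tested), with Frem3, Mx1 and Tacr2 among them. DG exceeded CA2 in 4 (16.5% of all), namely Vgll3, ENSRNOG00000049882 and 2 others without a symbol. The 4 became 2 without the repeated DG pair and with the rat as a replicate block on the 12 columns without repeats. The median log2 fold change of CA2 over DG was 0.79, against 0.00 over all genes. CA1 and DG gave no such lean. CA1 was higher in 15 genes (15.1% of all) and DG in 9 (14.2% of all), with a median log2 fold change of 0.04 against -0.01.

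Higher in CA2 than in both CA1 and DG were 17 of the 68 genes, against 5.32% of all genes tested. Their CA2 level ran from 8.26% of CA3, for Frem3, to 48.9%, with a median of 43.4%. These calls share the CA2 samples. CA2 replicate 1 held the highest CA2 level of 29 of the 68 genes and the highest sum of CA2 markers (260 CPM). CA1 replicate 2 held the highest CA1 level of 30 genes and the highest sum of CA2 markers in CA1 (38.2 CPM). DG replicate 2 likewise held the highest DG level of 26 genes, and CA3 replicate 2 had the highest Wfs1 in CA3 (129 CPM). Why replicate 2 stood highest in more than 1 subfield was not tested. The share of all genes highest in each library is not given, so none of these counts is read as particular to the 68. In CA2 and in DG, replicates 2 and 4 are the repeated pair. Vgll3 and Bhlhe23, lowest of the 68 in percent of CA3, were at 4 and 2 counts over all CA2 libraries together. The median of the 68 genes was 32.5% of CA3 in CA2, and Frem3 stood at 8.26%. Wfs1 reached 168 CPM in CA2. The source of these CA2 levels was not tested.

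**Figure D4:**
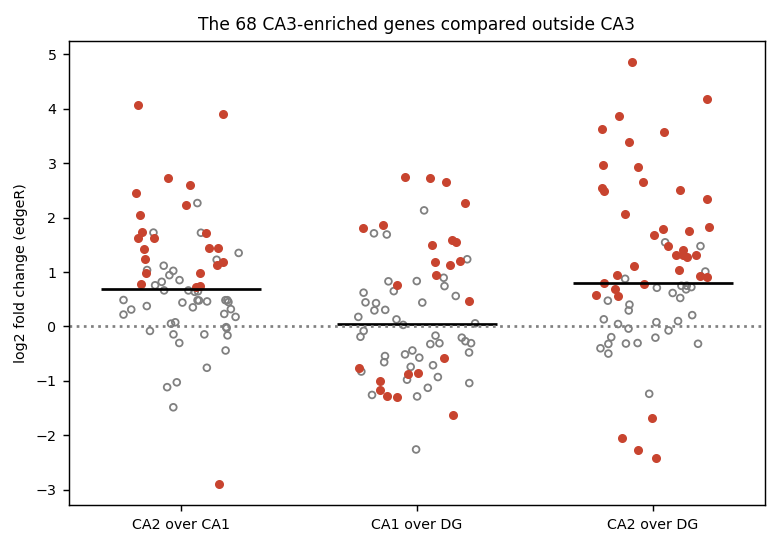
Log2 fold changes from edgeR of the 68 genes for CA2 over CA1, CA1 over DG and CA2 over DG, with filled points at an adjusted p under 0.05, open points otherwise and black lines at the medians. The points of CA2 over CA1 and CA2 over DG lie mostly above 0, and those of CA1 over DG lie on both sides.

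ENSRNOG00000049882 went against this order and was singled out after its values were seen. It read 9.64, 12.7, 4.78 and 5.25 CPM in CA1, 0.768, 2.37, 0.374 and 1.82 CPM in CA2, and 8.25, 5.46, 4.79 and 5.69 CPM in DG. Its CA3 libraries read 32.5, 19.5, 31.0 and 31.1 CPM. The CA2 libraries were below all others. CA1 was higher than CA2 by 2.89 ± 0.44 on the log2 scale (SE, edgeR quasi-likelihood, adjusted p = 8.37e-05), and DG was higher than CA2 by 2.27 ± 0.48 (adjusted p = 0.000842). ENSRNOG00000026953, with 5.53 ± 1.22 CPM in CA3 (SD, n = 4), was at 1.14 CPM or less in every other library, with edgeR adjusted p of 0.671, 0.854 and 0.421 among CA1, CA2 and DG.

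The rule fixed the means but not the overlap of libraries. In 63 of the 68 genes all 4 CA3 libraries were above all 12 others, with the 9 named genes among them. Over all genes tested the share was 1.99%, but these same libraries chose the 68, so the difference is a description. The 5 with overlap had no symbol. Among the CA3 libraries the median coefficient of variation of the 68 genes was 20.3% and ran from 3.09% to 130%. Over the 11447 genes at 3 CPM or more in CA3 the median was 13.7%. These genes were not matched to the 68 for level, and low counts alone raise this coefficient. CA3 replicate 1 was the highest CA3 library for 29 of the 68 genes, replicate 2 for 16, replicate 3 for 11 and replicate 4 for 12. The same shares over all genes are not given here.

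A single library carried 2 of the 68 genes, which were singled out after their values were seen. ENSRNOG00000055067 read 23.7, 61.0, 405 and 60.5 CPM in CA3, and its libraries outside CA3 ranged from 12.3 to 63.1 CPM. ENSRNOG00000055727 read 2.58, 6.09, 23.9 and 4.39 CPM in CA3 and reached 5.87 CPM in CA1. In both, CA3 replicate 3 stood far above every other library and the other CA3 libraries overlapped with those of the other subfields. Without CA3 replicate 3, 5 of the 68 genes no longer met the limits, and 69 genes met them in all. Of the 68, 61 still met them without CA3 replicate 1, 64 without replicate 2, the CA3 library with the highest Wfs1, and 65 without replicate 4. Without the repeated CA2 pair the number was 59.

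**Figure D5:**
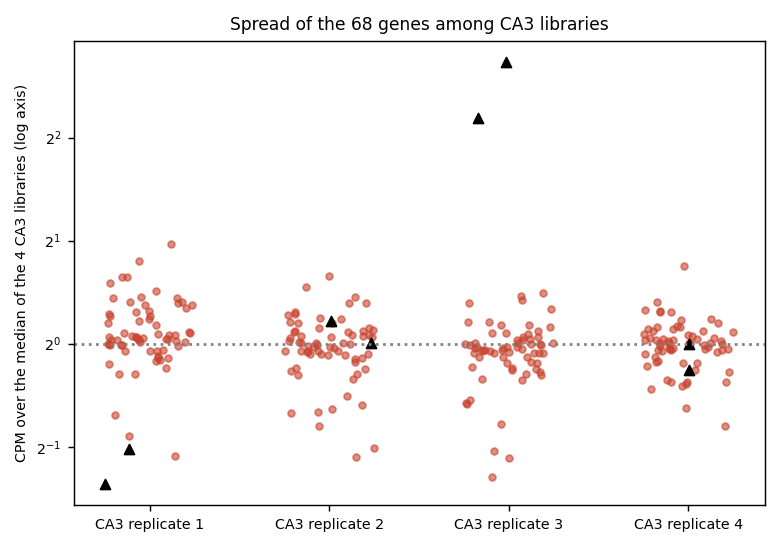
Level of each of the 68 genes in the 4 CA3 libraries, divided by the median of these libraries (log axis, base 2, dotted line at 1). Triangles are ENSRNOG00000055067 and ENSRNOG00000055727, which stand above all other points in replicate 3, while most genes stay within a factor of 2.

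The choice was repeated without a rat and then read in that rat, which is the same measure in samples the choice did not use. Without replicate 1, 72 genes met the limits in the others, 62 of them among the 68. Of the 72, 70 (97.2%) had their highest level of replicate 1 in CA3, against 18.2% of all genes tested. At least 2 times each other subfield were 49 of the 72, against 2.22% of all genes. Without replicate 3 the numbers were 69 of 71 (97.2%, against 19.1%), with 46 at 2 times or more (1.59% of all genes). Replicates 2 and 4 were left out together because of the repeated columns, and 72 of 75 genes (96.0%, against 18.3%) had their highest mean over both in CA3, with 50 at 2 times or more (1.59% of all genes). Of these 71 and 75 genes, 62 and 60 were among the 68. The shares of all genes include those under 3 CPM.

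Lists of related genes were read from the same fit. Symbols could be paired with an identifier for 24 of the 147 genes in 23 lists, and 9 lists had none, so that the families of the named genes could be followed only in part. Of the VGLL and TEAD list of 17 genes, Vgll3 and Amotl1, a scaffold of the Hippo pathway, were measured. Amotl1 had a mean of 21.2 CPM in DG, 1.77 in CA1, 1.56 in CA2 and 1.51 in CA3. It, Nhlh1 and Oas3 have a symbol only because the authors' marker list, drawn from these libraries, holds them, so their levels are given with no test. Of the basic helix-loop-helix list, Nhlh1 was the only other gene measured, and it had a mean of 37.6 CPM in DG and 0.262 in CA3. Of the interferon list of 15 genes, Mx1 and Oas3 were measured. Oas3 was listed at 0 in all CA1 and CA2 libraries, with a mean of 1.59 CPM in DG and 0.0951 in CA3. Arhgap36, of the hedgehog list, had a CA3 mean of 1.84 ± 0.631 CPM (SD, n = 4), under the limit of level. The same limits, with no gene left out by name, chose 159 genes for CA1, 60 for CA2 and 659 for DG.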

How the data were processed

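RNA of 4 subfields from 4 rats was sequenced by the authors after laser capture, with stranded total-RNA libraries. The reads were aligned with STAR to Rnor6, and the authors deposited the counts per Ensembl gene, without normalization. The counting program and its strand setting are not given in the sources used here, so counts are uncertain where genes overlap, lie antisense or are nearly identical. The submitters' processing notes name DESeq2 3.12. The authors' tables of log2 fold changes and p-values, made with DESeq2, were not used. The members and lists were chosen with earlier results of these data known. Symbols were taken from the authors' marker list, which pairs 288 identifiers. An item of the CA1 marker list is not reported here.

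CPM is the count per 1000000 counts of a library, without the 2 genes that held 16.1 to 31.1% of the counts. On this scale the median log2 difference of CA3 over DG was -0.17 over 10897 genes, and 0.02 after TMM scaling. Genes with more than 10 counts in all were tested with edgeR 4.0.16 (R 4.3.3), with 1 coefficient per subfield, TMM, quasi-likelihood F-tests and Benjamini-Hochberg adjustment over 17174 genes at 0.05. The 2 repeated pairs of columns were summed, which left 14 samples. A gene at or under 3 counts in every library of a subfield was given a ratio of summed counts with an exact interval for counting error only. Such an interval leaves out the spread among rats, and for a CA3 ratio it describes values that the rule used.

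The labels tie equal replicate numbers to 1 rat. The deviations from the subfield means of libraries of 1 rat correlated at 0.662 to 0.716 for replicate 1, -0.134 to 0.291 for replicate 2, -0.152 to 0.350 for replicate 3 and 0.202 to 0.485 for replicate 4. The rat of a repeated pair is unknown, so the block was run with all 16 columns and with the 12 without repeats.

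Named genes are every member with a symbol, at most 2 identifiers with the widest gap, and list genes that a result turned on, and a few identifiers singled out after their values were seen. The fit was tested on simulated counts. Alternatives were DESeq2 1.42.0, its size factors, other filters, the block, all 16 columns as samples, other limits and scalings of the rule, and leaving out each sample in turn. Values were computed with Python 3.11.15, pandas 2.3.3 and scipy 1.17.1.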

Additional observations from a re-analysis of the deposited data

Results flagged for a closer look

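Dixon's test for a library far from the other 3 of its subfield was made in CA1 and CA3 for the named genes and the 5 identifiers with values by library and for the summed level of the 68 genes, 30 groups in all, and it marked 5. Chance marks about 1 in 20 groups, but a group with 3 libraries at 0 and 1 above is always marked, as the CA1 groups of Bhlhe23 and Fermt1 were, and the identifiers had partly been singled out for their values. ENSRNOG00000055067 in CA3 replicate 3 was at 405 CPM against 23.7 to 61.0 in the other CA3 libraries. ENSRNOG00000055727 in the same library was at 23.9 CPM against 2.58 to 6.09. ENSRNOG00000049882 in CA3 replicate 2 was at 19.5 CPM against 31.0 to 32.5. Bhlhe23 in CA1 replicate 1 was at 0.132 CPM, from 1 count, with 0 in the others. Fermt1 in CA1 replicate 2 was at 0.235 CPM, 2 counts, with 0 in the others.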

How the results depend on the processing

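Without the 3 genes left out by name, the number of genes that met the limits was 68. It ranged from 66 to 77 when 1 library was left out, and was 61 without the repeated CA2 pair and 67 without the repeated DG pair. It was 61 with CPM over all genes, 72 with TMM-normalized CPM (63 of the 68 among them), 838 with no minimum level, 41 at 10 CPM or more, 10 at 4 times each other subfield and 174 at 1.5 times. Without 1 sample, the genes whose CA3 libraries were all above the others numbered 63 to 64. The number higher in CA2 than in CA1 was 21 to 25, in CA1 than in CA2 1 throughout, in CA1 than in DG 12 to 16, in DG than in CA1 8 to 11, in CA2 than in DG 32 to 35, and in DG than in CA2 2 to 5. The last number, 4 with all samples, was 2 with the rat as a replicate block and without the repeated columns. The block with all 16 columns gave 33, 1, 18, 12, 39 and 6 in this order, and without the repeated columns it gave 28, 1, 15, 10, 34 and 2.

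Alternatives were computed for the 7 named members with more than 3 counts in some library of CA1, CA2 or DG. Of 441 values under an alternative, 414 kept their direction and side of the threshold, 18 turned, 6 lost and 3 gained a call. None of those that turned had been called. With the block and without the repeated columns, log2 fold changes turned for Col8a2 (CA1 over DG, 1.06), Frem3 (CA1 over DG, 0.75) and Hcrtr2 (CA1 over CA2, -0.18). With the block and all 16 columns they turned for Col8a2 (CA2 over DG, -0.05) and Hcrtr2 (-0.03). Col8a2 in CA2 over DG was -0.01 with all 16 columns as samples, and Frem3 in CA1 over DG was 0.16 in DESeq2. Without 1 sample, Col8a2 ranged from -2.15 to 0.81 (CA1 over DG) and from -0.57 to 1.57 (CA2 over DG), Frem3 from -0.97 to 0.81 (CA1 over DG), Hcrtr2 from -0.15 to 0.20 (CA1 over CA2) and Tacr2 from -0.58 to 0.12 (CA1 over CA2). RT1-M6-1 passed in CA1 and CA2 with no filter on low counts (edgeR adjusted p = 0.0488). The block changed the call of Vgll3 between CA2 and DG, as given above, and no other call of these 7 genes. The cause was not tested. Genes under about 1 CPM rest on few counts.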
